A study of Homo sapiens with 29 samples.

Results

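The Huh7-only INO80 peaks without YY1 are sites where the INO80 ATPase was called in Huh7 cells, with no INO80 peak at the same place in HepG2 cells and no YY1 peak there in Huh7. They were chosen by position: a peak of the Huh7 INO80 list entered when it shared not even 1 bp with a HepG2 INO80 peak or a Huh7 YY1 peak. Of 15303 Huh7 INO80 peaks, 1639 met the rule, which is 10.7%. The other Huh7 INO80 peaks were 2277 Huh7-only peaks with YY1, 3112 peaks shared with HepG2 without YY1 and 8275 shared peaks with YY1.

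Both lines are established human liver cancer lines, and the factors were mapped by chromatin immunoprecipitation followed by sequencing. Huh7 gave 2 libraries each for INO80, MCRS1, RUVBL2, YY1 and input. HepG2 gave 3 libraries for INO80 and 2 each for MCRS1, RUVBL1, RUVBL2 and input, while its YY1 peaks came from ENCODE reads. The labels give no drug and no engineered allele for these groups, a further 8 HepG2 libraries of cells given EPZ-6438 or DMSO were not used here, and no label says whether the libraries of a factor are separate cultures. The antibody lot for INO80 was the same in both Huh7 libraries and in the third HepG2 library, and differed in the other HepG2 pair. Each factor has 1 peak list per line with positions only, so read depth is unknown, no value below has a replicate error, and the 95% Wilson intervals cover the counting of peaks only, although neighbouring peaks are not independent.

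INO80 is the ATPase of a large chromatin remodelling complex that slides and spaces nucleosomes, often beside gene starts and at enhancers. MCRS1 is a subunit of the complex, and the paired ATPases RUVBL1 and RUVBL2 belong to it and to other chromatin complexes. YY1 is a zinc finger transcription factor that reads a short DNA motif around the letters ATGG and can bring the complex to it.

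The DNA at the centre of 9 of these sites is printed below, 200 bp each, from the plus strand of GRCh37, which is the sequence of hg19. Letters in capitals match 1 of 16 searched motifs on either strand. The first set holds the widest printable sites at starts of protein-coding genes, because width is the only measure of size in the lists. The word start in a label means a coding start within 1 kb of the peak. The printed windows do not hold the start itself. Their centres lie 910 bp from the nearest coding start at NTF3, 571 bp at ZFP64 and 255 bp at CXCL12.
NTF3 start, chr12:5542084-5542283: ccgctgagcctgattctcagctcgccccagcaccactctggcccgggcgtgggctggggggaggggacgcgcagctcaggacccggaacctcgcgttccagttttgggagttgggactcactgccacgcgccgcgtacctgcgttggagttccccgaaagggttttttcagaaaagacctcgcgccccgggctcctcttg
ZFP64 start, chr20:50721512-50721711: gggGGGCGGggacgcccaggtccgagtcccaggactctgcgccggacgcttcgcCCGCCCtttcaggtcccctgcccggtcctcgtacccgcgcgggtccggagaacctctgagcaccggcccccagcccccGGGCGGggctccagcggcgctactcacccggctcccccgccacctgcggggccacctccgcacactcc
CXCL12 start, chr10:44880136-44880335: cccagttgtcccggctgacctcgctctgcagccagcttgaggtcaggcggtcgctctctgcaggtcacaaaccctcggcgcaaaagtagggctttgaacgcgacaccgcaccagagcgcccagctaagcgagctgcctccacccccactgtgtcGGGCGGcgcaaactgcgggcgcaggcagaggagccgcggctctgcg
The NTF3 window had no searched motif at 66.0% GC, the ZFP64 window had 3 GC boxes (GGGCGG, bound by SP and KLF factors) at 77.5% GC, and the CXCL12 window had 1 GC box at 67.5% GC. The number of CG steps was 18 at NTF3, 23 at ZFP64 and 19 at CXCL12.

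The second set holds the widest printable sites away from coding starts, to show how their sequence differs from that of the first set.
CROCC2 intron, chr2:241922516-241922715: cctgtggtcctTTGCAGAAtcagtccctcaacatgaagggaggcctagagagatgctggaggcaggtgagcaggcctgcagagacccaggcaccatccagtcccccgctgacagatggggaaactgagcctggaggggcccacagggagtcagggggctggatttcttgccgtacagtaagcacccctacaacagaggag
nearest to ZIC4, chr3:147087866-147088065: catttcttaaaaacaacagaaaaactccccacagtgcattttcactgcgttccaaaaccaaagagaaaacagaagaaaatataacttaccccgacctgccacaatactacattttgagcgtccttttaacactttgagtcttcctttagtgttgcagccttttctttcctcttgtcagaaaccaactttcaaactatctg
OSTM1 intron, chr6:108435793-108435992: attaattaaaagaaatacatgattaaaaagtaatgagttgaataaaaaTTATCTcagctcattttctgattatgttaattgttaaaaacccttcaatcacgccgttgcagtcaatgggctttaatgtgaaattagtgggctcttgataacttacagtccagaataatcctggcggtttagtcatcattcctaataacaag
These windows were poorer in CG steps, with 2 in the CROCC2 intron, 3 in the window nearest to ZIC4 and 3 in the OSTM1 intron. Their GC content was 60.0%, 38.0% and 31.5% in the same order. The capitals mark a C/EBP match in CROCC2 and a GATA match in OSTM1.

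The third set holds the 3 widest printable sites with the YY1 motif (AANATGGC), because the rule removed YY1 peaks but not YY1 motifs. The windows labelled TMEM26 start and CBARP start are centred 599 and 581 bp from the nearest coding start and do not hold it.
TMEM26 start, chr10:63212440-63212639: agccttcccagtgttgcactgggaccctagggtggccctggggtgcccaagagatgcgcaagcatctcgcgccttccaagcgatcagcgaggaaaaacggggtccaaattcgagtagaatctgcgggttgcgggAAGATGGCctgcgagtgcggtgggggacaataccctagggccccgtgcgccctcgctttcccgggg
nearest to ZFP64, chr20:50956605-50956804: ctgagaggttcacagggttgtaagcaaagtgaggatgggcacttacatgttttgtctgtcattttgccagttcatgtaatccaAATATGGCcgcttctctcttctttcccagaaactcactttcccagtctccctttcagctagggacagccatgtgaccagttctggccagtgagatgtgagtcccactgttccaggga
CBARP start, chr19:1237309-1237508: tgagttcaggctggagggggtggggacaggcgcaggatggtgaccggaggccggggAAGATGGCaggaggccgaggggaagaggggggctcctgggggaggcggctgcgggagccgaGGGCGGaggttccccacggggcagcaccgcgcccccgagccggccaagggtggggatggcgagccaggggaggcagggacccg
These windows each carry 1 YY1 match, and the CBARP window carries a GC box as well. Of the 1365 sites whose window could be printed, 80 had the YY1 motif within the 200 bp.

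These were small peaks, and width bears on the rule, since a wide peak has more room to touch another. Their median width was 200 bp and the middle 50% of them lay between 163 and 293 bp, against 336 bp in Huh7-only peaks with YY1, 313 bp in shared peaks without YY1 and 654 bp in shared peaks with YY1. At the narrowest width in the list, 147 bp, lay 166 of the 1639 sites (10.1%), against 3.59% of all Huh7 INO80 peaks. Only 38 sites (2.32%) reached 1000 bp, against 19.7% of all Huh7 INO80 peaks. The widest spanned 2536 bp. When every peak was set to 200 bp for the rule, the sites then chosen had a median original width of 316 bp. The median of all Huh7 INO80 peaks was 438 bp. The part of the rule in these widths was not tested.

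**Figure D1:**
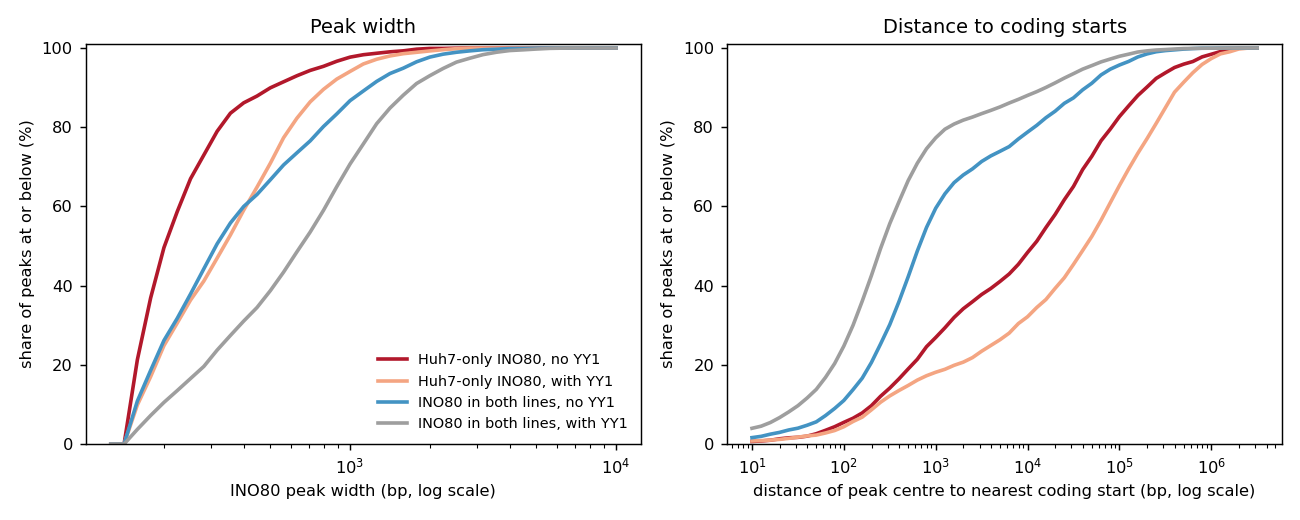
Left, share of peaks (%) at or below each INO80 peak width (bp, log scale); right, share of peaks at or below each distance from the peak centre to the nearest coding start (bp, log scale). Lines are the Huh7-only peaks without YY1 (red) and the other classes of Huh7 INO80 peaks; the red line lies leftmost for width (median 200 bp) and between the shared classes and the Huh7-only peaks with YY1 for distance (median 11239 bp).

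Some of the sites stood close to the peaks the rule compared them with. The nearest HepG2 INO80 peak was under 1 kb away for 435 sites (26.5%) and over 100 kb away for 399 (24.3%), with a median gap of 17959 bp. The nearest Huh7 YY1 peak was under 1 kb away for 332 sites (20.3%), with a median gap of 23044 bp. Neither kind of peak lay within 1 kb of 1086 sites (66.3%). Narrow sites were the ones beside a HepG2 INO80 peak more often: 34.8% of the 411 narrowest sites (147 to 163 bp) had one under 1 kb away, as did 13.2% of the 409 widest (294 to 2536 bp).

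The edge of the rule shows in single sites. Sites at the starts of PPM1E, KIAA1549 and ABHD5 lay 2, 6 and 9 bp from a HepG2 INO80 peak, and a site outside coding genes nearest to CD9 lay 6 bp from one. Just outside the rule, Huh7 INO80 peaks near TRAP1 and RPL37 shared 3 bp with a Huh7 YY1 peak, and peaks near NR4A1, PLPPR3 and HES6 shared 5 bp with a HepG2 INO80 peak.

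Of the sites as deposited, 1174 of 1639 lay more than 1 kb from a coding start. A start of a protein-coding transcript was within 1 kb of any part of the peak at 465 sites (28.4%, interval 26.2 to 30.6%), against 62.1% of all Huh7 INO80 peaks. The share was 18.7% in Huh7-only peaks with YY1, 63.1% in shared peaks without YY1 and 80.3% in shared peaks with YY1. The share of sites at coding starts moved when the lists were changed, which also changed the sites. It was 47.8% of 745 sites in the wider 50% of each list. With all peaks fixed at 200 bp around their centres it was 56.6%, and 6059 peaks then met the rule. Among the deposited sites binned by width, it was 28.5% in the narrowest 411, 24.6% in the next 410, 28.4% in the next 409 and 32% in the widest 409. As deposited, a further 156 sites (9.52%) lay at the start of another kind of gene, 61 (3.72%) on an exon of a coding gene, 442 (27%) in an intron and 515 (31.4%) outside coding genes. Among all Huh7 INO80 peaks, introns held 11.4% and the ground outside coding genes held 15.6%.

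At the 465 coding starts the sites were not centred on the start. The median distance from peak centre to start was 321 bp, against 211 bp in Huh7-only peaks with YY1, 338 bp in shared peaks without YY1 and 185 bp in shared peaks with YY1. The centre was within 250 bp of the start at 42.4% of these sites, against 61.3% of shared peaks with YY1. It lay downstream of the start at 52.0% of them.

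None of the 12 widest sites at coding starts overlapped a peak of another mapped factor in either line. NTF3, the gene of neurotrophin 3, carried a peak of 1766 bp (chr12:5541301-5543066), with the nearest HepG2 INO80 peak 387511 bp away. CHRM3, which encodes a muscarinic acetylcholine receptor, carried 1646 bp (chr1:239549640-239551285). CXCL12, the gene of a chemokine that attracts CXCR4-bearing cells, also carried 1646 bp (chr10:44879413-44881058).

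HSF4, a heat shock factor gene, had the widest site at a coding start, of 1917 bp (chr16:67196408-67198324), over the body of its neighbour FBXL8, with a HepG2 INO80 peak 238 bp away and a Huh7 YY1 peak 324 bp away. ZFP64, a zinc finger gene, had 1720 bp (chr20:50720752-50722471), and its nearest HepG2 INO80 peak was 84999 bp away. A peak of 1658 bp (chr6:108486208-108487865) covered starts of NR2E1 and OSTM1 that are transcribed away from each other. NR2E1 is a nuclear receptor gene of neural stem cells, and OSTM1 is a lysosomal membrane protein gene.

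IRX5, a homeobox gene, had 1512 bp with a HepG2 INO80 peak 1576 bp away and a Huh7 YY1 peak 555 bp away. UGT8, the enzyme gene for the myelin lipid galactosylceramide, had 1345 bp, and CNIH3, a gene of AMPA receptor auxiliary subunits, had 1308 bp. TMEM26 had 1329 bp, RALYL had 1297 bp and MECOM, the gene of the transcription factor EVI1, had 1272 bp. The nearest HepG2 INO80 peak was 1068 bp away at RALYL and at least 180621 bp away at the other 4 of these 5 genes.

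**Figure D2:**
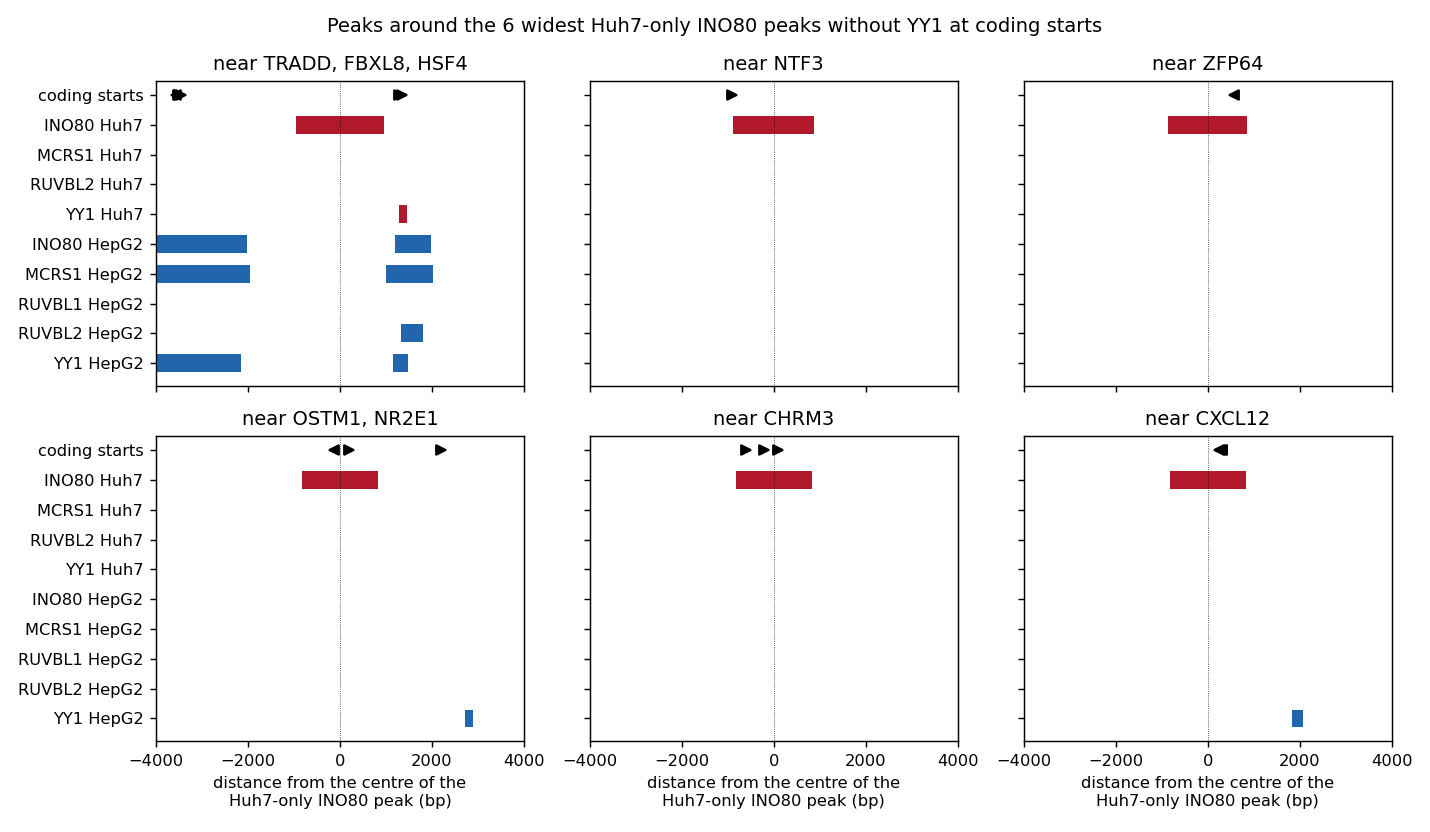
Peaks of all 9 lists within 4000 bp of the centres of the 6 widest coding-start sites, by distance from the centre (bp); red bars are Huh7 peaks, blue bars are HepG2 peaks, and arrowheads mark coding starts and point in the direction of transcription. Around NTF3, ZFP64 and CHRM3 only the Huh7 INO80 peak is seen, CXCL12 and NR2E1 each have a YY1 peak of HepG2 to one side, and HSF4 has peaks of several factors on both sides.

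Away from coding starts, the widest site lay in an intron of CROCC2 and spanned 2536 bp (chr2:241921348-241923883). The site nearest to ZIC4, a zinc finger gene of the developing cerebellum, spanned 2347 bp (chr3:147086793-147089139) and overlapped MCRS1 in Huh7. An OSTM1 intron held 1980 bp (chr6:108434903-108436882) and overlapped YY1 in HepG2.

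The other 9 of the 12 widest sites away from starts overlapped no peak of another factor. Exons were touched in SP6, a transcription factor gene of tooth development (1891 bp), in CYP26C1, a gene of retinoic acid breakdown (1756 bp), and in NHLH2, a neuronal transcription factor gene (1387 bp). Introns of RASA3 (1572 bp) and CALCB (1119 bp) held a site each, and sites outside coding genes had NAV2 (1474 bp) and ZNF516 (1446 bp) as the nearest coding start. The gap to a HepG2 INO80 peak ran between 1541 bp at CYP26C1 and 137141 bp at NHLH2.

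Few of the sites carried another INO80 component in Huh7. MCRS1 overlapped 118 sites (7.20%, interval 6.05 to 8.55%), against 31.8% of all Huh7 INO80 peaks. The share was 27.4% in Huh7-only peaks with YY1, 8.35% in shared peaks without YY1 and 46.7% in shared peaks with YY1. Against shared peaks without YY1 the order varied with place and width, and at coding starts the intervals overlap. Away from coding starts MCRS1 was at 6.81% of the sites (interval 5.51 to 8.40%) and 10.9% of shared peaks without YY1 (9.22 to 12.8%), and at coding starts at 8.17% (6.01 to 11%) and 6.87% (5.84 to 8.08%). In the wider 50% of each list the shares were 13.3% and 7.22%, and with all peaks fixed at 200 bp they were 13.3% and 15.4%.

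RUVBL2 overlapped 6 sites (0.366%, interval 0.168 to 0.796%), against 17% of all Huh7 INO80 peaks. The share was 7.99% in Huh7-only peaks with YY1, 1.22% in shared peaks without YY1 and 28.6% in shared peaks with YY1. Among the sites it was 1.61% in the wider 50% of each list and 6.19% with every peak set to 200 bp. MCRS1 or RUVBL2 was present at 122 sites (7.44%), against 36.2% of all Huh7 INO80 peaks. The RUVBL2 list is the shortest in Huh7, with 3322 peaks, and the MCRS1 list holds 6020.

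The MCRS1 share differed by width. With the sites in 4 bins by width, the share was 2.43% in the narrowest 411, 6.10% in the next 410, 6.85% in the next 409 and 13.4% in the widest 409. The median width was 261 bp at the 118 sites with MCRS1 and 196 bp at the 1521 without.

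The widest sites with MCRS1 were mixed in kind. After the site nearest to ZIC4 came a peak of 894 bp at the starts of AMIGO2, a cell adhesion gene, and PCED1B, then 873 bp in an intron of the semaphorin receptor gene PLXNC1 and 872 bp at the start of ZNF79. ETFBKMT, the gene of a mitochondrial methyltransferase, had 840 bp, and GATA3, a transcription factor gene of T cells and breast epithelium, had 746 bp (chr10:8095563-8096308). Sites near HPGD, the enzyme gene of prostaglandin breakdown, in KLRC4-KLRK1, at GNG12 and at RERE measured between 648 and 740 bp. Of these 10 sites, PLXNC1, ZNF79 and RERE overlapped YY1 in HepG2, and ZNF79 also overlapped MCRS1 there.

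The 6 sites with RUVBL2 were narrow apart from the one at MORC2-AS1, which spanned 570 bp (chr22:31317823-31318392) and also carried MCRS1. An intron of NEMP1, a nuclear envelope protein gene, held 175 bp with both RUVBL2 and MCRS1. CHMP1A, a gene of the ESCRT-III membrane machinery, held 237 bp in an intron. The starts of FBLIM1, SIVA1 and PLD3 carried 159, 147 and 147 bp. A Huh7 YY1 peak lay under 1 kb away at 4 of the 6: 18 bp away at SIVA1, 43 bp at FBLIM1, 99 bp at PLD3 and 379 bp at NEMP1.

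The label Huh7-only holds for INO80 alone. At 562 sites (34.3%, interval 32.0 to 36.6%) another mapped factor was called in HepG2, against 77.9% of all Huh7 INO80 peaks. The share was 57.9% in Huh7-only peaks with YY1, 66.2% in shared peaks without YY1 and 96.5% in shared peaks with YY1. At the other 1077 sites no factor was called in HepG2.

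YY1 was the factor most often found in HepG2. It overlapped 466 sites (28.4%), against 72.6% of all Huh7 INO80 peaks and 53.5% of Huh7-only peaks with YY1. MCRS1 of HepG2 overlapped 265 sites (16.2%), against 65.8% of all Huh7 INO80 peaks and 14.5% of Huh7-only peaks with YY1. RUVBL2 of HepG2 overlapped 27 sites (1.65%, against 40.9% of all Huh7 INO80 peaks), and RUVBL1 of HepG2 overlapped 17 (1.04%, against 19.6%). In Huh7-only peaks with YY1 these shares were also low, at 3.65% for RUVBL2 and 1.67% for RUVBL1.

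In combination, 287 sites had YY1 alone in HepG2, 149 had MCRS1 with YY1 and 84 had MCRS1 alone. MCRS1 of HepG2 covered 26.9% of the sites at coding starts (interval 23.1 to 31.1%) and 11.9% of those away from them (10.2 to 13.9%). Only 26 sites had 3 or more factors. The widest of these was 566 bp long at the non-coding RNA gene GIRGL (chr7:20259056-20259621), 2312 bp from a start of MACC1, and carried MCRS1, RUVBL1 and YY1 in HepG2 with the nearest HepG2 INO80 peak 110154 bp away. The next were at the start of RALGAPB (435 bp), in SLC38A6 (387 bp) and at the start of MYBL1 (341 bp). Each of those 3 lay between 15 and 141 bp from a HepG2 INO80 peak.

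YY1 in HepG2 went with MCRS1 in Huh7 among the sites. MCRS1 of Huh7 overlapped 60 of the 466 sites with YY1 in HepG2 (12.9%, interval 10.1 to 16.2%) and 58 of the 1173 without (4.94%, interval 3.84 to 6.34%). These intervals cover the counting of peaks only, and the difference was not tested. The sites with YY1 in HepG2 had a median width of 189 bp and those without had 205 bp. The part of width in these MCRS1 shares was not tested. The YY1 list of HepG2 is the longest of all, with 39293 peaks.

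**Figure D3:**
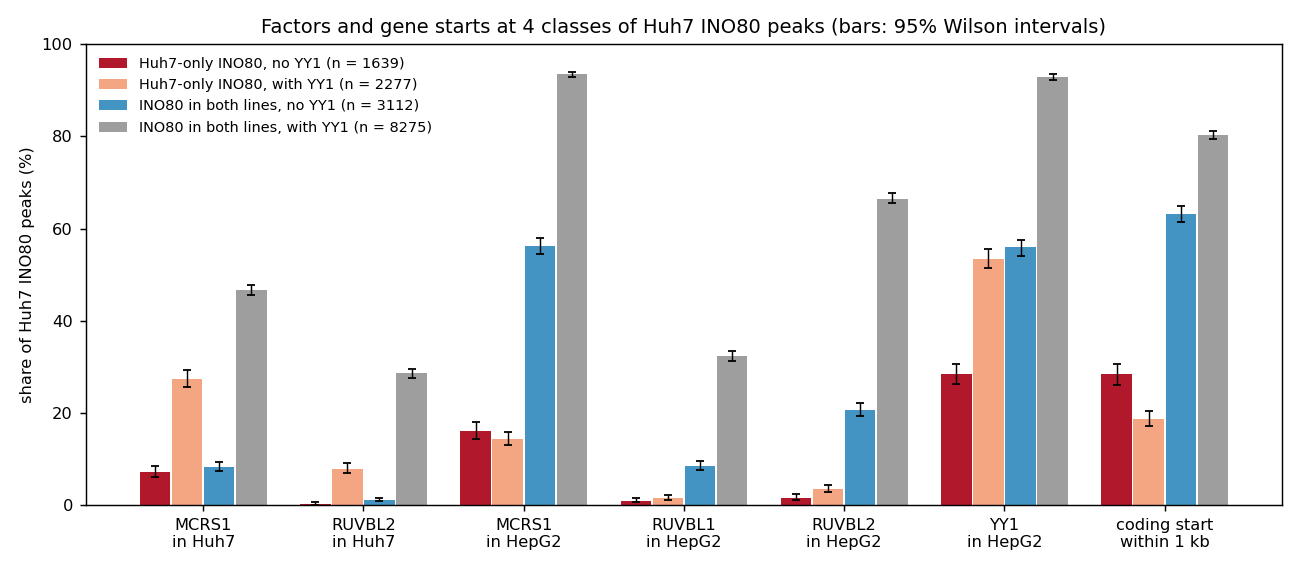
Share of peaks (%) that overlap each factor, or have a coding start within 1 kb, in the Huh7-only INO80 peaks without YY1 (red, n = 1639) and in the other classes of Huh7 INO80 peaks; error bars are 95% Wilson intervals. The red bars stand at 7.20% for MCRS1 in Huh7, 0.366% for RUVBL2 in Huh7 and 28.4% for YY1 in HepG2, beside 46.7%, 28.6% and 92.9% in shared peaks with YY1.

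Counted by gene, 483 of 19825 protein-coding genes (2.44%) had such a site within 1 kb of a start, where 47.6% had any Huh7 INO80 peak. Of the 483 genes, 158 had another Huh7 INO80 peak at a start and 272 had a HepG2 INO80 peak at a start. INO80 was called at a start by these sites alone, with no other INO80 peak in either line, in 200 genes (1.01% of all coding genes). Among those 200 genes, 37 had a Huh7 YY1 peak at a start, 78 had a HepG2 YY1 peak there and 111 had YY1 in neither line.

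INO80 at liver genes gave no clear check of the liver origin of the line. It was called in Huh7 at a start of 20 of 25 hepatocyte transcription factor genes and 13 of 50 genes of hepatocyte products, against 9 of 40 neuronal genes, 8 of 35 blood cell genes and 47.6% of all coding genes. The share at hepatocyte products (26%) lay below that of all coding genes and near those of neuronal (22.5%) and blood cell genes (22.9%). Occupancy is not expression, which was not measured. The sites described here reached 2 of the 25 hepatocyte factor genes (8%) and 0 of the 50 product genes, beside 2.44% of all coding genes. The 2 were the nuclear receptor gene ESRRA (290 bp) and ONECUT1 (171 bp), both under 1 kb from a HepG2 INO80 peak.

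Developmental regulators had 6 of 122 genes with a site (4.92%), against 2.44% of all coding genes. Of the 6, 5 had no other INO80 peak at a start in either line, as did 200 of all 483 genes with a site. Among the 6 were IRX5 (1512 bp), BARHL2 (792 bp), GATA3 (746 bp), TFAP2B (240 bp) and FOXE1, all genes of transcription factors. The nearest HepG2 INO80 peak was 804 bp away at BARHL2, 1576 bp at IRX5, 1767 bp at GATA3 and 94786 bp at TFAP2B. HOX genes had 1 of 39 (2.56%), HOXA3 (211 bp).

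Zinc finger genes had 16 of 508 with a site (3.15%). Of the 16, 11 had no other INO80 peak at a start, beside 200 of all 483 genes with a site. The widest were ZNF79 (872 bp), ZNF608 (814 bp), ZNF804B (366 bp), ZNF575 (291 bp) and ZNF737 (225 bp). Solute carriers had 13 of 338 (3.85%), led by SLC1A3, a glutamate transporter gene (932 bp), SLC6A4, the serotonin transporter gene (285 bp), SLC4A7 (260 bp), SLC39A8 (220 bp) and SLC38A4 (202 bp). Clustered protocadherins, neuronal adhesion genes, had 3 of 53 (5.66%): PCDHGC3 (283 bp), PCDHAC1 (209 bp) and PCDHB5 (148 bp). These shares rest on few genes beside the 2.44% of all coding genes.

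The neuronal, blood cell and mesenchymal lists gave 1 or 2 genes each (5%, 5.71% and 2.86%), beside 2.44% of all coding genes. Among 40 neuronal genes, NLGN1, a synaptic adhesion gene, carried 890 bp and SNAP25, a gene of vesicle fusion, carried 210 bp. Among 35 blood cell genes, CD14, the monocyte co-receptor for endotoxin, carried 1178 bp (chr5:140011521-140012698) and the neutrophil elastase gene ELANE carried 147 bp. COL5A2, a fibrillar collagen gene, carried 508 bp and was the single one of 35 mesenchymal genes.

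Growth and housekeeping lists had single sites or none, beside 2.44% of all coding genes. LTBP2 was 1 of 32 TGF-beta, BMP and YAP response genes, RNF43 was 1 of 25 Wnt targets, NR4A3 was 1 of 30 immediate-early genes, RPA2 was 1 of 45 replication genes and RPL35 was 1 of 84 ribosomal protein genes. Their shares, of 3.12%, 4%, 3.33%, 2.22% and 1.19%, each rest on 1 gene. No site was found at a start of 16 INO80 subunit genes, 56 DNA repair genes, 86 respiratory chain genes, 35 epithelial genes or 381 olfactory receptor genes. INO80 of Huh7 was already called by other peaks at most of the first 3 of these lists: 12 of 16, 40 of 56 and 68 of 86 genes had any Huh7 INO80 peak at a start. At the epithelial genes it was 17 of 35, and at the olfactory receptors 1 of 381.

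The DNA about the centres of the sites was poorer in G, C and CpG than that of the other classes. The windows, of 300 bp in every class, take in flanking DNA at most of the sites, whose 75th percentile of width was 293 bp. Over the whole peak the median GC content of the sites was 54.4%, and in 100 bp it was 55%. The other classes were not recomputed in that way. The motif shares below use the same 300 bp windows. In 300 bp about the peak centre, the median GC content was 52.7% (25th and 75th percentiles 47.0 and 61.3%), against 58.3% in Huh7-only peaks with YY1, 63.3% in shared peaks without YY1 and 65.7% in shared peaks with YY1. The median ratio of observed to expected CpG was 0.47, against 0.70, 0.70 and 0.79 in the same classes. GC above 50% together with a CpG ratio above 0.6, a usual mark of CpG islands, was met at 523 sites (31.9%), against 68.0% of all Huh7 INO80 peaks.

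Composition also differed by place. Sites at coding starts had a median GC content of 60.0% and 57.2% of them met the CpG rule, while sites away from starts had 50.7% GC and 21.9% met it. Shared peaks without YY1 had 65.3% GC at starts and 58.7% away from them, and Huh7-only peaks with YY1 had 63.7% and 58%. The sites without YY1 thus had a lower value than either class in both places.

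The YY1 motif AANATGGC was in the window of 118 sites (7.20%, interval 6.05 to 8.55%), against 11.6% of all Huh7 INO80 peaks. It was present in 24.8% of Huh7-only peaks with YY1, 3.34% of shared peaks without YY1 and 11.9% of shared peaks with YY1. MCRS1 in Huh7 was at 6 of the 118 sites with the motif (5.08%, interval 2.35 to 10.7%), close to its 7.20% of all the sites. Sites with YY1 in HepG2 had the motif in 10.1% of windows and sites without it in 6.05%. By place, 3.23% of the sites at coding starts and 8.77% of those away from them held it.

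The GATA, C/EBP, CCAAT and AP-1 motifs had higher shares in these sites than in all Huh7 INO80 peaks, and the GC box and ETS motif had lower ones. The GATA motif (AGATAA) was in 12% of site windows, against 5.70% of all Huh7 INO80 peaks, and the C/EBP motif (TTGCNNAA) was in 11.8%, against 7.27%. The CCAAT box, bound by NF-Y, was in 26.1%, against 20.3%, and the AP-1 motif (TGANTCA) was in 8.18%, against 5.24%. AP-1 was not particular to the sites, since it was in 8.61% of Huh7-only peaks with YY1. The GC box was in 26.1%, against 47.2%, and the ETS motif (CCGGAAG) was in 2.93%, against 8.60%.

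Away from coding starts, where the GC content was 50.7% in these sites and 58.7% in shared peaks without YY1, the shares can be set side by side for these classes. GATA was in 14.5% of the sites and 9.67% of shared peaks without YY1, and C/EBP was in 13.7% and 12.3%. The CCAAT box was in 25.1% and 20.8%, AP-1 was in 9.63% and 8.10%, and the GC box was in 20.4% and 34.8%. The TEAD motif (ACATTCC) was in 4.09% and 4.01%. In Huh7-only peaks with YY1 away from coding starts, GATA was in 6.43%, C/EBP in 4.65%, the CCAAT box in 13.9% and the GC box in 15.1%. The GC box was thus more frequent in the sites than in that class. AP-1 was in 9.29% of that class, close to the 9.63% of the sites. The part of base composition in these shares was not tested.

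The motifs differ in their number of fixed letters, so shares are compared between classes and not between motifs. Of the other liver factor motifs, FOXA and HNF4A had higher shares in the sites than in all Huh7 INO80 peaks. Neither was particular to the sites: FOXA was in 6.37% of Huh7-only peaks with YY1, and HNF4A was in 1.35% of shared peaks without YY1. HNF1 was in 2 site windows. FOXA (TGTTTAC) was in 4.39% of site windows, against 3.27% of all Huh7 INO80 peaks, HNF4A (CAAAGTNCA) was in 1.53%, against 0.908%, and HNF1 was in 0.122%, against 0.163%. The E-box CACGTG was in 3.90%, against 5.70%, and NRF1 was in 1.22%, against 3.76%. CTCF was in 1.04%, against 0.706%, REST was in 0.183%, against 0.0653%, and the p53 motif was in 0.122%, against 0.0719%. All motifs were read on both strands, and matches of different motifs may overlap.

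**Figure D4:**
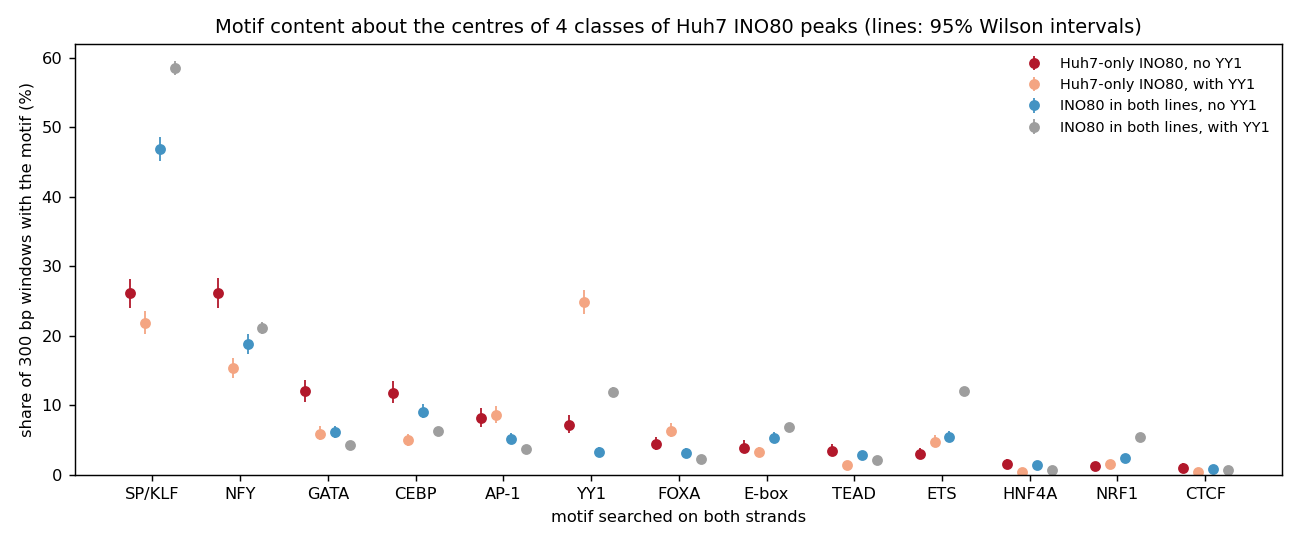
Share of 300 bp windows about the peak centre (%) that hold each motif on either strand, in the Huh7-only INO80 peaks without YY1 (red) and the other classes of Huh7 INO80 peaks; lines are 95% Wilson intervals. GATA (12%), C/EBP (11.8%) and CCAAT (26.1%) stand highest in red, while the YY1 motif stands highest in Huh7-only peaks with YY1 (24.8%) and the GC box in shared peaks with YY1 (58.6%).

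The sites were spread over the genome, with fewer on some chromosomes. They made up 4.47% of the Huh7 INO80 peaks of chromosome 16 (25 of 559, interval 3.05 to 6.52%) and 5.91% of those of chromosome 17 (48 of 812, interval 4.49 to 7.75%), against 10.7% in all. The highest shares were 14.8% on chromosome 12 (137 of 927) and 14.7% on chromosome 4 (107 of 726). The rule removes peaks shared with HepG2, and the shared fraction was 88.0% on 16, 87.7% on 17, 68.8% on 12 and 59.8% on 4. On chromosome X the shared fraction was lower, at 46.1%, and the sites made up 7.78% of its peaks (13 of 167). The part of the shared fraction in these shares was not tested.

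In HepG2, chromosomes 2, 14, 16, 17 and 20 are known from its karyotype to be gained. Together those held 272 sites among 3521 Huh7 INO80 peaks (7.73%, interval 6.89 to 8.65%), against 1367 among 11782 elsewhere (11.6%, interval 11 to 12.2%). Huh7-only peaks with YY1 made up 10.3% of the peaks on these chromosomes and 16.2% elsewhere. Copy number was not measured here, and its part in these shares was not tested.

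**Figure D5:**
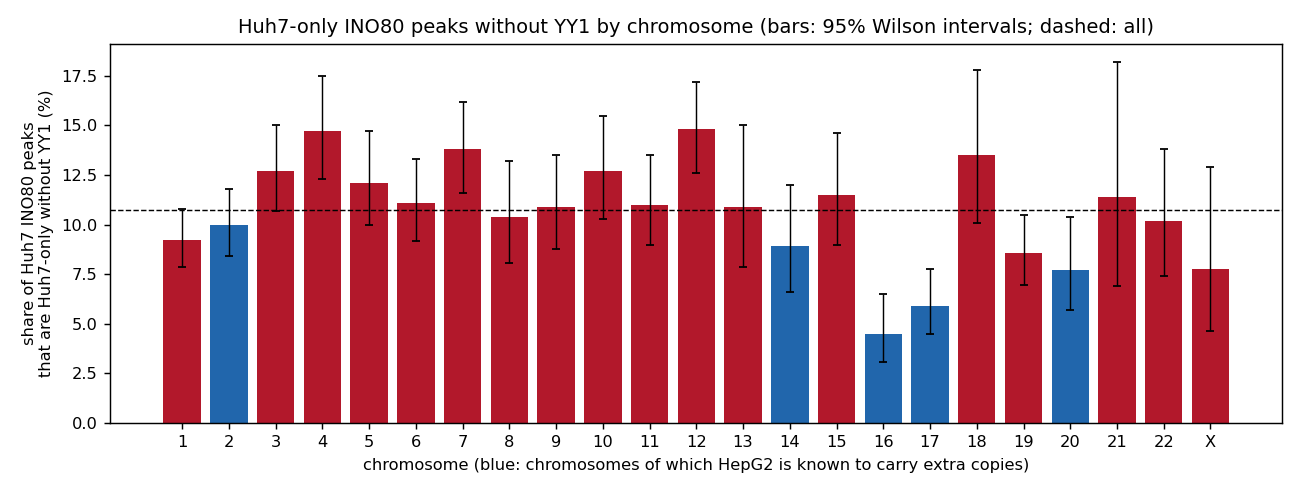
Share of the Huh7 INO80 peaks (%) of chromosomes 1 to 22 and X that are Huh7-only without YY1; error bars are 95% Wilson intervals, the dashed line is the share in all peaks (10.7%), and blue bars are the chromosomes with known extra copies in HepG2. Of those drawn, chromosomes 16 (4.47%) and 17 (5.91%) stand lowest and chromosomes 12 (14.8%) and 4 (14.7%) highest.

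Few of the sites stood in groups. Within 10 kb of another such site lay 109 of the 1639, in 52 groups, and no group had more than 3. The 5 groups of 3, named after their values were seen, had as the nearest coding start SLC25A44, MECOM, PDGFRA, PCDH10 and POM121L2. The group at MECOM covered 168864122 to 168870259 on chromosome 3 and held the start site described above. The group at PDGFRA, a receptor kinase gene of mesenchymal cells, covered 55083911 to 55095319 on chromosome 4.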

How the data were processed

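The authors deposited 1 filtered peak list per factor and line, whose values are peak positions in bp on hg19 and hold no score. Bowtie2, SAMtools, MACS2, bedtools and deepTools were used, without stated versions, per the submitters' processing notes. Pooling of libraries before peak calling: not given in the sources used here. Libraries were grouped by title. A fly spike-in table of HepG2 H3K27ac libraries was not used here.

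Overlap meant at least 1 bp shared. Classes, gaps, shares with 95% Wilson intervals, motif matches in 300 bp about the peak centre and GC content were computed in Python 3.11.15 with pandas 2.3.3, and tested on simulated data. Regions of 1 list are not replicates, so no test was run. Gene starts came from GENCODE release 44 on GRCh37. A peak's own overlap with the rule's lists, and its width, bear on the choice of members and are descriptions.

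Members, lists and motifs were chosen with earlier results of these data known. Sites named are the widest of each kind (12 at coding starts, 12 elsewhere, 10 with MCRS1, all with RUVBL2, 5 with 3 or more HepG2 factors, 5 per gene list, and those nearest the rule's edge), since the lists hold no score. FOXE1 is named beyond that rule, and a few sites it selects are not reported here. Printed windows pass over annotated untranslated regions and chromosome 8 and take the next in width. Coordinates are 1-based.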

Additional observations from a re-analysis of the deposited data

How the results depend on the processing

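Of the recomputed values, 21 of 47 stayed within the main interval or, for the number of sites, within 1.5 times. Leaving out chromosome X and Y, or chromosomes 2, 14, 16, 17 and 20, moved none of the 6 values recomputed there. Asking that at least 50% of the peak be covered gave MCRS1 in Huh7 at 5.79%, another HepG2 factor at 30.2%, coding starts at 35.8% and a median width of 244 bp. Asking for no HepG2 INO80 or Huh7 YY1 peak within 1 kb left 1086 sites, with another HepG2 factor at 28.6%, coding starts at 18.7% and a width of 216 bp. Setting every peak to 200 bp about its centre gave 6059 sites, with MCRS1 at 13.3%, RUVBL2 at 6.19%, coding starts at 56.6% and an original width of 316 bp. Keeping the wider 50% of each list gave 745 sites, with MCRS1 at 13.3%, RUVBL2 at 1.61%, another HepG2 factor at 38.7%, coding starts at 47.8% and a width of 641 bp. Under these last settings MCRS1 was at 26.6% and 38.1% in Huh7-only peaks with YY1 and at 15.4% and 7.22% in shared peaks without YY1, so the order of the sites and that class turned for the wider peaks, and coding starts passed 50% with peaks of 200 bp; the cause was not tested. Starts within 5 kb gave 41.2% and starts of all annotated genes gave 41.4%. Leaving out sites with YY1 in HepG2, chosen after seeing the data, gave MCRS1 at 4.94% and coding starts at 26.2%. A 100 bp window gave the YY1 motif at 3.36% and 55.0% GC, and the whole peak gave 54.4% GC.

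No paired analysis was possible because each factor has 1 list per line. Leaving out a replicate, a replicate block and a stricter score could not be run for the same reason or for want of a score. Read depth is unknown, so absence from a list says only that no peak was called.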
